A study of Mus musculus with 2 samples.

Results

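Metalloproteinases of the matrix and cell surface, and the proteins that inhibit them, were followed across the cell types of the mouse aorta in 2 genotypes. The genes were taken by name: all genes of the deposited matrices whose symbol begins with Mmp, Adam, Adamts, Adamtsl or Timp followed by a digit. This gave 83 of 32285 genes, made up of 22 matrix metalloproteinases (MMPs), 33 ADAMs, 19 ADAMTS proteases, 5 ADAMTS-like proteins and 4 tissue inhibitors of metalloproteinases (TIMPs). The rule itself uses symbols and no measured value, but the family was chosen with earlier results of these data known.

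The study compared wild-type mice with MGP-KI mice, which carry a mutation knocked in to the gene for matrix Gla protein, a secreted inhibitor of bone morphogenetic proteins and of calcification; the series is about how that mutation tunes cell differentiation in the aortic media. Each genotype was 1 library of 10x single-cell RNA sequencing, from perfused aortas of mice 1 month old, with males and females together, the adventitia dissected away and DAPI-positive dead cells sorted out. Both libraries carry the same batch label, and the mutated residue, the number of pooled mice and the hour of collection are not given in the sources used here. With 1 library per genotype there was no replicate check and no test between genotypes: every interval below covers counting error only, and a difference between the genotypes cannot be told apart from a difference between these 2 libraries.

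As background, MMPs are zinc-dependent enzymes, secreted or held at the membrane, that cut collagens, elastin and proteoglycans. ADAMs are mostly membrane sheddases that release growth factors and receptors from the cell surface; ADAMTS enzymes are secreted, bind matrix through thrombospondin repeats and trim procollagens or cleave versican and aggrecan, and ADAMTS-like proteins share those repeats but lack the catalytic domain. TIMPs block the active site of MMPs and, in the case of TIMP3, of several ADAM and ADAMTS enzymes too, and the balance of proteases and TIMPs is long studied in aortic aneurysm and elastic fibre loss.

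The promoters of 4 members are shown because they fall into the extremes of the results that follow: Mmp3 and Mmp12 were each read almost only in 1 of the named cell classes, whereas Timp3 and Mmp14 were read in fibroblast-like, smooth muscle-like and endothelial-like cells alike. Each line holds 300 bases on the plus strand, from 250 before to 50 after a RefSeq start (GRCm38.p6), at chr9:7445572-7445871 for Mmp3, chr9:7347124-7347423 for Mmp12, chr10:86300162-86300461 for Timp3 and chr14:54431348-54431647 for Mmp14. Capitals mark matches to an AP-1 motif (TGANTCA, the same on both strands), a TATA box (TATAAA, searched on the gene's own strand only) or a GC box (GGGCGG or CCGCCC, so both strands).
Mmp3: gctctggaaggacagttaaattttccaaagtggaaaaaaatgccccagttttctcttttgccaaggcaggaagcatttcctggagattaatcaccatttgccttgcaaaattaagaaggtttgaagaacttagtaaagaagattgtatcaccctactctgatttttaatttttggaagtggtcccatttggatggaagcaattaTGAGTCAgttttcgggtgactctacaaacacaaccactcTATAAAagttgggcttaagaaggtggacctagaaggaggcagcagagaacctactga
Mmp12: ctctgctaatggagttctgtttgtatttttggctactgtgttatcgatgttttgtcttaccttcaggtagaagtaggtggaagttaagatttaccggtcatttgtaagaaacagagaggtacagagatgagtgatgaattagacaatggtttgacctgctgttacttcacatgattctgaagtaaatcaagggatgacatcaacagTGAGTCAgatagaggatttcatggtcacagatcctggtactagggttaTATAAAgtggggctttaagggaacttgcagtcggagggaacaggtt
Timp3: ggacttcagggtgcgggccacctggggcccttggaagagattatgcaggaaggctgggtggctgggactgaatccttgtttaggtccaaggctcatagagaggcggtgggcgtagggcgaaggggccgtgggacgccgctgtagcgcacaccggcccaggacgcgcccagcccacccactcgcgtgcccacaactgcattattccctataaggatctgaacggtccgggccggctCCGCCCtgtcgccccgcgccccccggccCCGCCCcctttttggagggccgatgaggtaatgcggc
Mmp14: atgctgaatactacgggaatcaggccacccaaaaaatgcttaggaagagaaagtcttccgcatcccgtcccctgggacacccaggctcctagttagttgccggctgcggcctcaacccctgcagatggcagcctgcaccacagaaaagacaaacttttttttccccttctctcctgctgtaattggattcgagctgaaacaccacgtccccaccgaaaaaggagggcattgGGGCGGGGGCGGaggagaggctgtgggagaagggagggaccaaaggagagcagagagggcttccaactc
The Mmp3 window held an AP-1 match beginning 46 bases before the start and a TATA box 7 bases before it, and the Mmp12 window an AP-1 match 44 bases before and a TATA string 4 bases after. Timp3, at 67% G or C with 24 CG pairs, held 2 GC boxes and neither of the other motifs, against 40% and 1 CG pair in Mmp3; the 2 GC boxes of Mmp14 lie side by side. Promoter windows were matched by symbol for 52 of the 83 members (57 windows, since some genes have several starts; a second Mmp12 window held no match). AP-1 matches were in 12 of the 57 windows (21.1%, against 7.81% of 32851 mouse promoter windows of the same length), TATA boxes in 11 (19.3% against 8.32%) and GC boxes in 27 (47.4% against 35.7%). Mmp1b, Mmp3, Mmp7, Mmp10, Mmp12, Mmp13, Mmp20 and Adam29 held both AP-1 and TATA matches. The MMPs among these are neighbours on chr9, with windows that begin between 7272264 (Mmp13) and 7691840 (Mmp7). Most of the AP-1 and TATA matches thus came from 1 stretch of related genes, and the shares without it were not computed. A match is a string of letters and not a shown binding site. Other members differed from the promoters shown. Timp1, read mainly in fibroblast-like cells, held a GC box and neither of the other motifs. Adamtsl2, also read mainly in fibroblast-like cells, held a TATA box and a GC box. Adamts1, read in fibroblast-like, smooth muscle-like and endothelial-like cells, held a TATA box and GC boxes. Whether motifs go with the spread over cell classes was not tested.

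The wild-type library held 79626104 unique molecular identifiers (UMIs, each standing for 1 captured RNA molecule) and the knock-in library 85831737; 3588 and 6089 cells were kept, with a median of 20396 and 11650 UMIs. Before doublets were removed, 4 cell barcodes of the 3697 and 6419 that passed the filters were in both libraries. Cells were clustered without the 83 genes, and clusters were named from marker lists: fibroblast-like (2700 wild-type and 2913 knock-in cells), smooth muscle cell-like or SMC-like (245 and 2337), macrophage or monocyte-like (351 and 292) and endothelial-like (64 and 46), beside 3 unnamed clusters. A mesothelial-like cluster of 7 wild-type and 0 knock-in cells was left out of the comparisons. In their own class, summed SMC markers were at 42490 and 40460 CPM (UMIs of the gene per 1000000 UMIs), fibroblast markers at 57830 and 53910 and macrophage markers at 26330 and 25790. The SMC-like share of cells was 6.83% (wild-type) and 38.4% (knock-in), female cells were 32.6% and 46.0% of all cells, and the clock genes Dbp (26.3 and 364 CPM in fibroblast-like cells) and Arntl (41.2 and 3.19 CPM) stood far apart; the part of dissection, sex or hour of collection in the results below was not tested.

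Fibroblast-like cells were the main source of these transcripts, which summed to 6174 CPM over all members in wild-type and 6909 CPM in knock-in cells. SMC-like cells gave 2649 and 2827 CPM, macrophage or monocyte-like cells 1888 and 1879 CPM and endothelial-like cells 3223 and 4397 CPM. Since a UMI stands for 1 molecule whatever the transcript's length, CPM are compared between genes without scaling by length, although capture can differ between genes. In each class TIMPs led: Timp3 held 19.5% of the members' UMIs in wild-type and 32.2% in knock-in SMC-like cells, Timp2 24.0% and 27.3% in fibroblast-like cells and 46.9% and 50.1% in macrophage or monocyte-like cells, and Timp3 27.4% and 35.8% in endothelial-like cells.

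**Figure D1:**
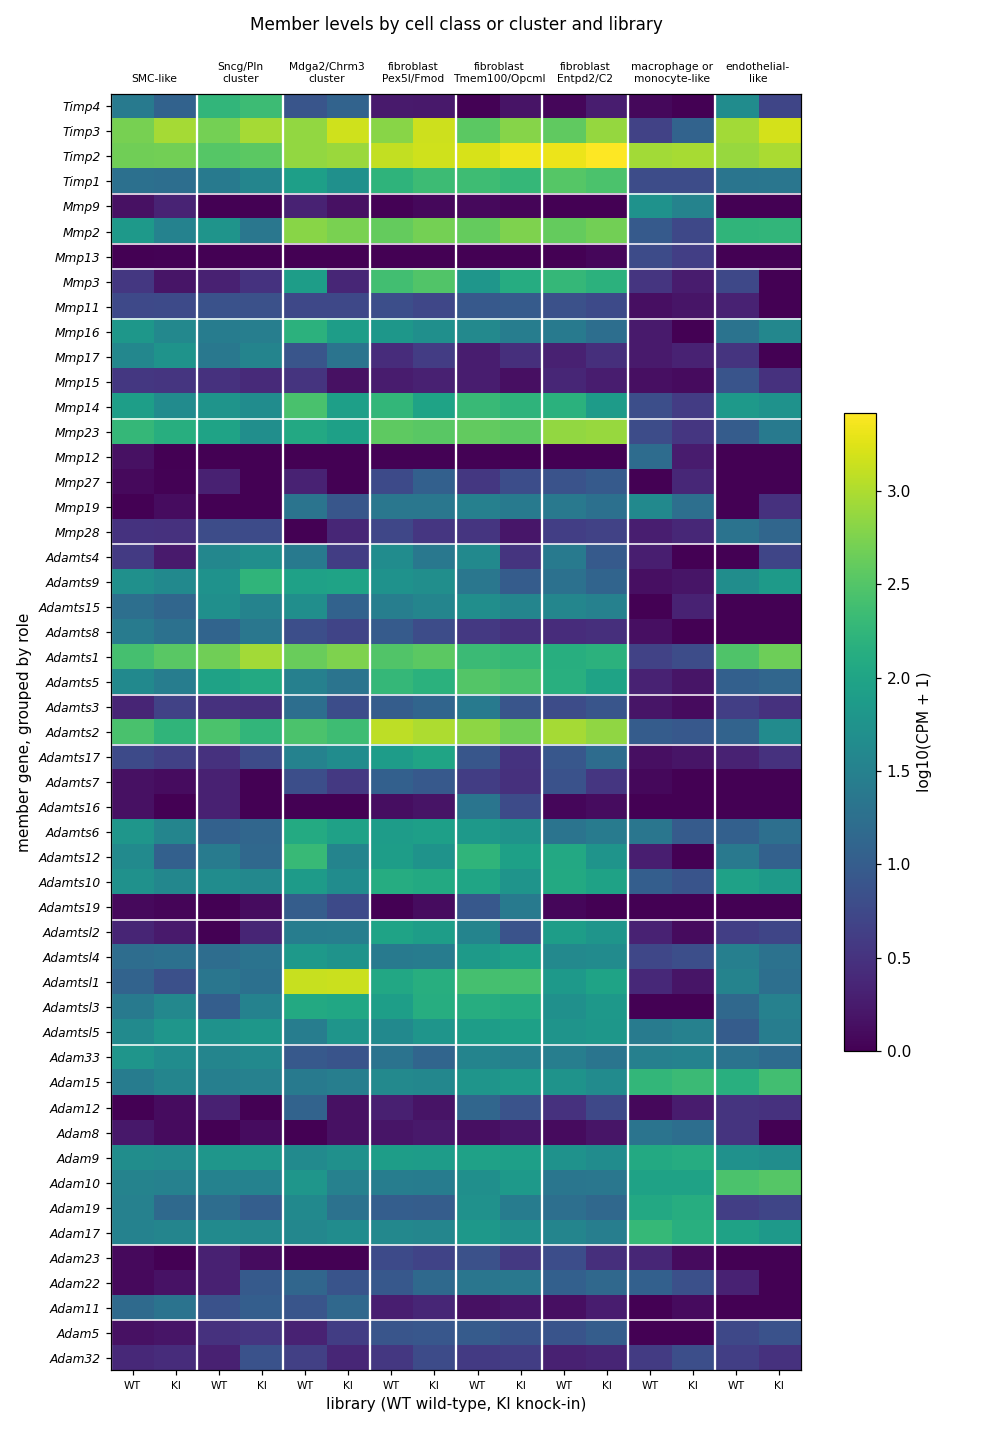
Heat map of the level of the 51 members that reach 5 CPM in some column, as log10(CPM + 1), in wild-type and knock-in cells of each named class or cluster. Brighter colours are higher levels. Timp2 and Timp3 are bright across the structural columns, whereas Mmp9 is marked in macrophage or monocyte-like cells and Adamtsl1 most in the Mdga2 and Chrm3 cluster.

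Which cell class held the most of a gene was largely shared by the 2 libraries. Of 54 members with at least 20 UMIs in each library, 45 had the same top class in both: fibroblast-like for 30, macrophage or monocyte-like for 6 (Mmp9, Adam8, Adam9, Adam17, Adam19 and Adam30), SMC-like for 5 (Mmp16, Mmp17, Adam11, Adam33 and Adamts8) and endothelial-like for 4 (Timp3, Mmp28, Adam10 and Adamts1). In the knock-in library Mmp16 was at 38.1 CPM in SMC-like and 37.5 CPM in endothelial-like cells, with overlapping intervals, so its top class there was not apart. By level, 8 members were at 20 CPM or more in 1 class and at least 4-fold above the other 3 of the 4 classes, in both libraries. Mmp17, a membrane-anchored MMP, was the one in SMC-like cells, at 37.7 and 55.6 CPM (wild-type and knock-in) against 1.34 and 2.52 CPM in fibroblast-like cells. Fibroblast-like cells had 6 of the 8: Mmp3 (stromelysin-1, 174 and 231 CPM), Timp1 (209 and 226 CPM), the versican- and aggrecan-cleaving Adamts5 (225 and 170 CPM), Adamts17 (45.1 and 57.3 CPM), Adamtsl1 (153 and 156 CPM) and Adamtsl2 (73.5 and 57.2 CPM). The last of the 8, Mmp9 or gelatinase B, was at 53.8 and 33.2 CPM in macrophage or monocyte-like cells and at 0.09 and 0.12 CPM in fibroblast-like cells. Unnamed clusters were left out of both rankings. In both libraries Adamts1 was higher in the Sncg and Pln cluster, and Adamtsl1 in the Mdga2 and Chrm3 cluster, than in any named class.

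The inhibitors are described first. Timp3 (ENSMUSG00000020044), the inhibitor that binds to the matrix, stood at 517 CPM in wild-type SMC-like cells and 912 CPM in knock-in ones, a log2 difference (knock-in over wild-type throughout) of 0.82 with a 95% interval of 0.76 to 0.88. In fibroblast-like cells its level was 522 and 1077 CPM, a difference of 1.04 (1.02 to 1.07). Among the named classes, endothelial-like cells had the highest Timp3 level in both libraries, 881 and 1575 CPM, a difference of 0.84 (0.69 to 0.98). The unnamed clusters are left out of this order. Of these, the Mdga2 and Chrm3 cluster had a knock-in level within the endothelial-like interval. The wild-type intervals of SMC-like (496 to 537 CPM) and fibroblast-like cells (516 to 528 CPM) overlap, so these neighbours in the order were not apart, whereas in the knock-in library the fibroblast-like level was above that in SMC-like cells (1066 to 1088 against 901 to 922 CPM). Macrophage or monocyte-like cells held only 3.71 and 11.4 CPM (20 and 41 UMIs), of which free RNA from broken cells, estimated from contractile genes, would give 77.4% and 74.9%. Timp3 thus was higher in the knock-in library in all 3 structural classes; it was lower in the small cycling cluster described further on.

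Timp3 lies inside Syn3, a synapsin gene, on the RefSeq models, and, the strand of counting being unstated, reads of the 2 genes cannot be told apart with certainty. Syn3 itself was at 25.9 and 51.9 CPM in SMC-like cells (a log2 difference of 1.00) and at 15.6 and 41.9 CPM in fibroblast-like cells (1.42), far below Timp3. The Timp3 difference was present in SMC-like cells of females (0.64) and males (0.97), at 8000 to 20000 UMIs (0.86) and above 20000 UMIs (0.96). It also held in female (1.31) and male (0.79) fibroblast-like cells and in both depth ranges (1.32 and 0.78).

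Timp2 (ENSMUSG00000017466), which also takes part in activating pro-MMP2 with MMP14, was the highest member in fibroblast-like cells at 1484 and 1888 CPM, a log2 difference of 0.35 (0.33 to 0.36). It differed little in SMC-like cells, at 468 and 496 CPM (0.09, 0.02 to 0.15), or in macrophage or monocyte-like cells, at 885 and 942 CPM (0.09, 0.03 to 0.15). Endothelial-like cells had 776 and 974 CPM (0.33, 0.15 to 0.50). Fibroblast-like cells came first and SMC-like cells last for Timp2 in both libraries; between them, macrophage or monocyte-like cells were above endothelial-like cells in the wild-type library, and the intervals of the 2 overlapped in the knock-in library (910 to 974 and 888 to 1066 CPM). Timp1, a secreted inhibitor of most MMPs, was at 209 and 226 CPM in fibroblast-like cells and at 17.1 and 16.4 CPM in SMC-like cells, without a difference past 1.5-fold in either.

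Timp4 (ENSMUSG00000030317), the inhibitor best known from heart and vessel wall, had another pattern. It was at 24.0 CPM (112 UMIs) in wild-type and 11 CPM (338 UMIs) in knock-in SMC-like cells, a log2 difference of -1.13 (-1.44 to -0.81). That difference was -1.87 in female and -0.05 in male SMC-like cells, and 0.22 in males of 8000 to 20000 UMIs, so its sign was not the same in all subsets. Endothelial-like cells had 44.7 and 4.16 CPM, from 40 and 2 UMIs in 64 and 46 cells. Its highest level was in an unnamed cluster led by Sncg and Pln (49 and 249 cells), where it was at 178 and 217 CPM, a difference of 0.28. After thinning every cell to 5000 UMIs, 39.6% (wild-type) and 47.6% (knock-in) of that cluster's cells had a Timp4 UMI, against 7.85% and 4.11% of SMC-like and 0.16% and 0.31% of fibroblast-like cells. Timp4 and the synapsin gene Syn2 overlap on the RefSeq models as Timp3 and Syn3 do.

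**Figure D2:**
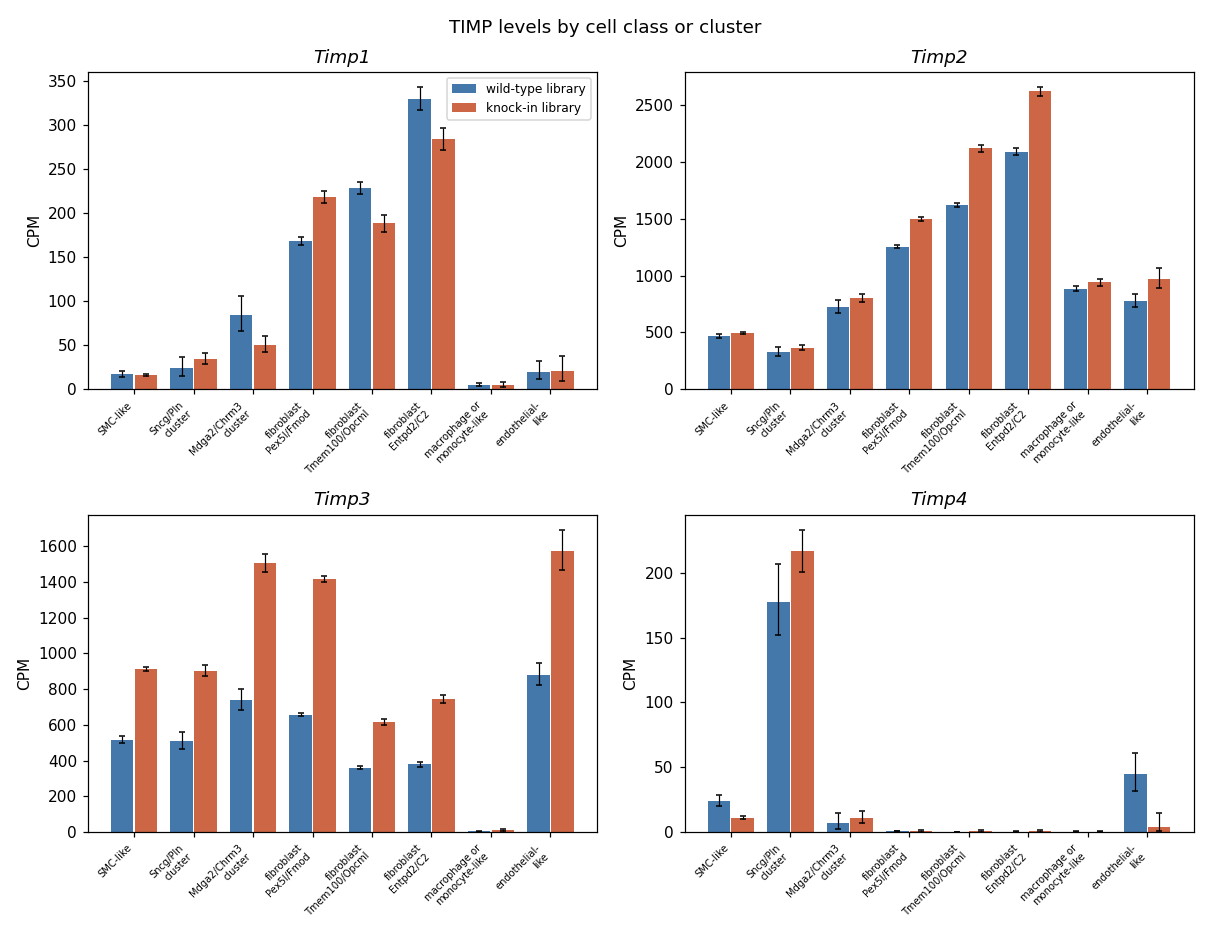
Bars give Timp1, Timp2, Timp3 and Timp4 in CPM (from 0) in wild-type and knock-in cells of each class, with 95% Poisson intervals of the UMI count. Timp3 bars are taller in the knock-in library in SMC-like, fibroblast-like and endothelial-like cells (912, 1077 and 1575 CPM), whereas Timp4 stands out in the Sncg and Pln cluster.

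Set against the proteases, TIMP transcripts weighed more in the knock-in library in each of the 4 named classes. The 4 TIMPs gave 0.68 UMIs for each UMI of an MMP, ADAM or ADAMTS gene (leaving out the non-catalytic Adam11, Adam22 and Adam23) in wild-type SMC-like cells (95% interval 0.65 to 0.70) and 1.15 in knock-in ones (1.13 to 1.17). The ratio was 0.63 and 0.98 in fibroblast-like, 0.94 and 1.09 in macrophage or monocyte-like and 1.22 and 1.49 in endothelial-like cells. Within the fibroblast-like class it was higher in the knock-in library in each of its 3 clusters. The numerator made most of the shift in fibroblast-like cells, where TIMPs summed to 2216 and 3192 CPM; in SMC-like cells TIMPs were higher (1026 and 1435 CPM) and MMPs lower (453 and 323 CPM). Timp3 (517 and 912 CPM), whose reads cannot be told apart from Syn3 with certainty, made most of the TIMP difference in SMC-like cells. There Timp2 (468 and 496 CPM) and Timp1 (17.1 and 16.4 CPM) differed little, and Timp4 was lower. In endothelial-like cells Timp3 (881 and 1575 CPM) also differed more than Timp2 (776 and 974 CPM). The ratio without Timp3 was not computed. This ratio counts transcripts and says nothing of enzyme activity.

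Over the SMC-like class, 34 of the 83 members passed the minimum for a comparison (at least 10 UMIs predicted in each library from the mean CPM) and 19 had no UMI. Of the 34, 3 were at least 1.5-fold higher in the knock-in library (8.82%, where 6.8% of 11361 genes were), 10 at least 1.5-fold lower (29.4%, where 7.05% of all genes were) and 21 lay between. The median log2 difference was -0.34 over the members and -0.05 over all genes. In male SMC-like cells of 8000 to 20000 UMIs the members' counts were instead 5 higher and 3 lower, with a median of 0.12. These counts are not set beside the shares of all genes in that subset. Over the fibroblast-like class, 55 members passed: 11 were higher (20%, against 9.49% of 15272 genes), 9 lower (16.4%, against 8.32%) and 35 lay between, with a median of 0.01 against -0.06. Between these 2 classes, the share of members past 1.5-fold was further above that of all genes on the lower side in SMC-like cells, and in fibroblast-like cells it was about 2 times that of all genes on both sides.

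**Figure D3:**
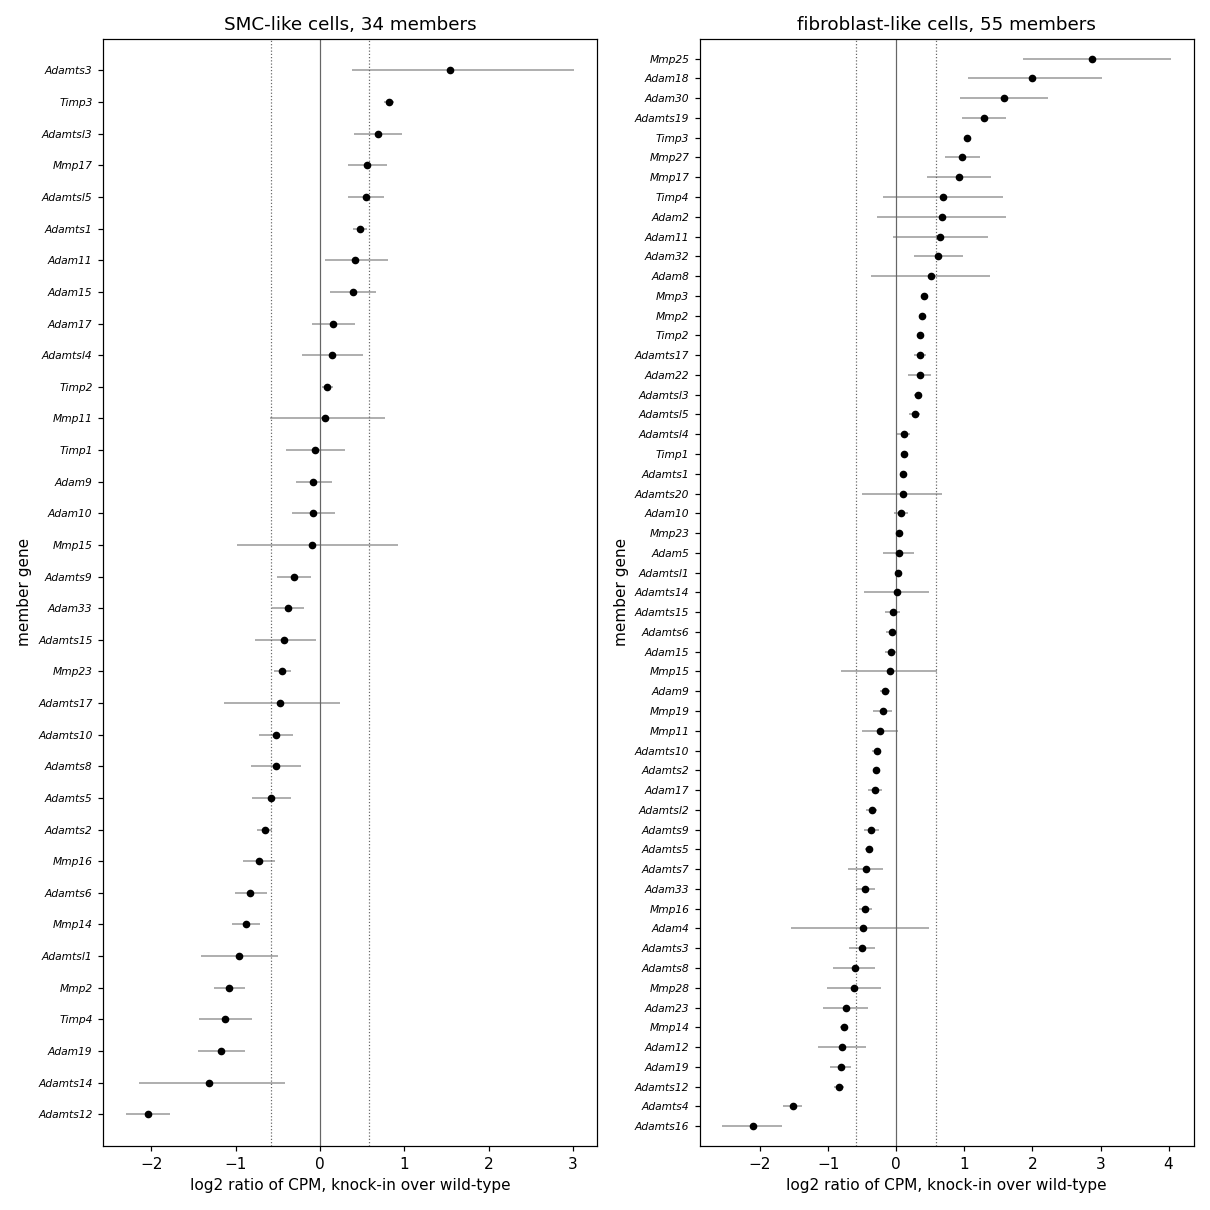
Points are log2 differences (knock-in over wild-type) of the 34 members of SMC-like and the 55 of fibroblast-like cells that passed the minimum, with 95% counting intervals; dotted lines mark 1.5-fold. Adamts12 is the lowest SMC-like member (-2.04), and Adamts16 (-2.10) and Mmp25 (2.88) are the ends of the fibroblast-like list.

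Among the gelatinases, which digest denatured collagen and type IV collagen, Mmp2 (ENSMUSG00000031740) went in opposite directions in the 2 classes. In SMC-like cells its level was 67.0 CPM for wild-type and 31.8 CPM for knock-in, with a log2 difference of -1.07 (-1.26 to -0.89). In fibroblast-like cells it was at 403 and 522 CPM, a difference of 0.37 (0.34 to 0.40). Endothelial-like cells had 172 and 179 CPM, with an interval that holds 0 (-0.34 to 0.45). Among SMC-like cells the Mmp2 difference came to -1.66 for females, -0.68 for males and -0.64 at 8000 to 20000 UMIs, but 0.071 for males within that depth range.

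The 6 membrane-type MMPs, which act at the cell surface, summed to 185 CPM in wild-type and 142 CPM in knock-in SMC-like cells, and to 238 and 150 CPM in fibroblast-like cells. Mmp14 (ENSMUSG00000000957), the activator of pro-MMP2, was at 81.3 and 44.2 CPM in SMC-like cells, a log2 difference of -0.88 (-1.05 to -0.71), and at 184 and 108 CPM in fibroblast-like cells, -0.77 (-0.83 to -0.72). The first was close in female (-0.99) and male (-0.72) cells and in both depth ranges (-0.81 and -0.78). Over the alternative settings listed at the end it kept its sign but ranged from -1.26 to -0.22. In fibroblast-like cells over 20000 UMIs the Mmp14 difference was -0.23. Mmp16 was at 62.9 and 38.1 CPM in SMC-like cells (-0.72, and from -1.06 to -0.12 over the alternatives) and at 50.9 and 37.1 CPM in fibroblast-like cells (-0.45). Mmp17 went the other way, at 0.56 in SMC-like cells, just under 1.5-fold, and at 0.92 in fibroblast-like cells from a low level (1.34 and 2.52 CPM). Mmp25, a leukocyte-type MMP that overlaps Bicdl2, was at 0.18 and 1.29 CPM in fibroblast-like cells (10 and 42 UMIs), 2.88 (1.86 to 4.04); in SMC-like cells it had 0 and 65 UMIs, at least 3.29-fold higher in the knock-in library when the 0 is set to 3 counts.

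Stromelysins, collagenases and other secreted MMPs differed widely in level. Mmp3, which cuts proteoglycans and activates other MMPs, was at 174 and 231 CPM in fibroblast-like cells, a log2 difference of 0.41 (0.37 to 0.46), and below 3 CPM in SMC-like cells (2.57 and 0.55). The Mmp3 difference was 0.63 at 8000 to 20000 UMIs and -0.25 over 20000 UMIs, so its direction changed with depth. Mmp23, an MMP anchored by its propeptide, was high and alike in fibroblast-like cells (429 and 441 CPM, 0.04) and at 190 and 140 CPM in SMC-like cells (-0.44). Mmp27 was at 4.36 and 8.54 CPM (0.97) and Mmp28 at 3.53 and 2.30 CPM (-0.62, but 0.37 in females of 8000 to 20000 UMIs) in fibroblast-like cells; endothelial-like cells had Mmp28 at 19.0 and 12.5 CPM, on 17 and 6 UMIs. Collagenases were nearly absent outside macrophages, with 2 and 1 UMIs in all fibroblast-like cells over the 3 genes.

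The procollagen-trimming ADAMTS proteases, which remove the amino propeptide of fibrillar collagens, were led by Adamts2. It was at 985 and 798 CPM in fibroblast-like cells, a log2 difference of -0.30 (-0.32 to -0.28), and at 272 and 172 CPM in SMC-like cells, -0.65 (-0.74 to -0.57). Its relatives were scarce: Adamts3 was at 1.28 and 3.73 CPM in SMC-like cells (6 and 115 UMIs; 1.54, 0.37 to 3.02) and at 13.7 and 9.64 CPM in fibroblast-like cells (-0.51). Adamts14 was at 3.64 and 1.46 CPM in SMC-like cells (-1.32, but 0.61 in males of 8000 to 20000 UMIs) and at 1.83 and 1.84 CPM in fibroblast-like cells (0.01). The class with more of the enzyme thus had the smaller difference for Adamts2.

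Of the proteoglycan-cleaving group, Adamts1, a versican-cleaving enzyme, was among the 4 highest members of SMC-like cells, at 254 and 352 CPM (0.47), with 256 and 274 CPM in fibroblast-like cells (0.10). Adamts4 (ENSMUSG00000006403), aggrecanase-1, was at 41.0 and 14.3 CPM in fibroblast-like cells, a log2 difference of -1.52 (-1.67 to -1.38), and kept that direction in female (-1.89) and male (-1.41) cells and in both depth ranges (-1.21 and -2.11). Adamts5 was at 225 and 170 CPM in fibroblast-like cells (-0.41) and at 40.4 and 27.0 CPM in SMC-like cells (-0.58). Adamts8 was at 5.73 and 3.75 CPM in fibroblast-like cells (-0.61), a sign that turned at 8000 to 20000 UMIs (0.19), in females (0.35) and with libraries clustered separately (0.24), while Adamts9 and Adamts15 stayed within 1.5-fold in both classes.

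Other ADAMTS genes held the lowest values of both lists. Adamts12 (ENSMUSG00000047497), which cleaves COMP, was at 42.2 CPM (197 UMIs) in wild-type and 10.2 CPM (315 UMIs) in knock-in SMC-like cells, a log2 difference of -2.04 (-2.30 to -1.78). Among SMC-like cells of 8000 to 20000 UMIs Adamts12 was at 19.9 and 9.66 CPM (-1.04), and among those over 20000 UMIs at 62.5 and 13 CPM (-2.26). Over the alternative settings listed at the end its SMC-like difference ranged from -2.22 to -0.57. In fibroblast-like cells Adamts12 was at 114 and 63.3 CPM, -0.84 (-0.92 to -0.77), with -0.94 in female and -0.71 in male cells. Adamts6, a relative of the fibrillin-binding Adamts10, was at 61.8 and 34.9 CPM in SMC-like cells (-0.82) and alike in fibroblast-like cells (67.1 and 64.1 CPM). Adamts10 was at 53.3 and 37.1 CPM (-0.52) and at 118 and 97.0 CPM (-0.29) in the 2 classes. Adamts16 (ENSMUSG00000049538) was at 6.73 and 1.57 CPM in fibroblast-like cells (383 and 51 UMIs), -2.10 (-2.55 to -1.68), and Adamts19 at 2.53 and 6.17 CPM (1.29, 0.97 to 1.60). The Adamts19 difference turned to -1.80 at 8000 to 20000 UMIs and to -2.14 in males of that depth.

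The ADAMTS-like proteins, several of which bind fibrillin microfibrils, summed to 94.6 and 124 CPM in SMC-like and 417 and 441 CPM in fibroblast-like cells. Adamtsl3 was at 23.8 and 38.1 CPM in SMC-like cells, a log2 difference of 0.68 (0.40 to 0.98), and at 93.3 and 116 CPM in fibroblast-like cells (0.31). Adamtsl5 was at 42.6 and 62.1 CPM in SMC-like cells (0.54). Adamtsl1 was the exception, at 11.3 and 5.81 CPM in SMC-like cells (-0.96), where its difference was 0.42 in cells over 20000 UMIs; in fibroblast-like cells it was alike. None of the 5 passed 1.5-fold in fibroblast-like cells.

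ADAMs, with the non-catalytic and reproductive tract genes included, were the steadiest of the families in SMC-like cells, at 245 and 229 CPM in sum. Adam10 and Adam17, the main sheddases of Notch receptors and of TNF and EGF-family ligands, were at 32.5 and 30.8 CPM and at 31.7 and 35.2 CPM there, and Adam9 at 46.0 and 43.6 CPM. Adam19 (ENSMUSG00000011256), known for its part in heart valve development, was the 1 ADAM past 1.5-fold, at 31.0 and 13.8 CPM, a log2 difference of -1.17 (-1.44 to -0.89). In fibroblast-like cells Adam19 was at 24.9 and 14.2 CPM (-0.81), Adam12 at 4.88 and 2.83 CPM (-0.79) and the non-catalytic Adam23 at 5.29 and 3.16 CPM (-0.74). The sign turned for Adam12 over 20000 UMIs (0.78) and for Adam23 in females of 8000 to 20000 UMIs (0.10). Adam33, an SMC and fibroblast ADAM, was within 1.5-fold in both classes (59.1 and 45.3 CPM in SMC-like cells). The higher ADAMs of fibroblast-like cells were rare transcripts of genes best known from testis: Adam18 (14 and 32 UMIs, 2.0), Adam30 (34 and 58 UMIs, 1.58) and Adam32 (141 and 124 UMIs, 0.62).

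Of the 10 members lower in knock-in SMC-like cells, 6 (Adamts2, Adamts6, Adamts12, Adamtsl1, Mmp2 and Mmp14) had their highest named class in fibroblast-like cells in both libraries. That is near the share over the 54 members ranked by class, of which 30 did. Timp1, also highest in fibroblast-like cells, was alike in SMC-like cells (17.1 and 16.4 CPM). Fibroblast markers were lower in knock-in SMC-like cells: summed over 11 genes they were at 6140 CPM in wild-type and 3895 CPM in knock-in cells. Of the 10 markers that passed the minimum, 5 were at least 1.5-fold lower and none higher, and none of the 11 was at 0. Among them Dpt was at 39.6 and 11.5 CPM and Col1a1 at 2285 and 1328 CPM, whereas Pdgfra (5.35 and 5.94 CPM) and Cd248 (19.0 and 20.6 CPM) were alike. The part of fibroblast RNA in these 6 differences was not tested. SMC markers in fibroblast-like cells went from 445 to 781 CPM, with 7 of 11 at least 1.5-fold higher, and their part in the values of fibroblast-like cells was not tested either.

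**Figure D4:**
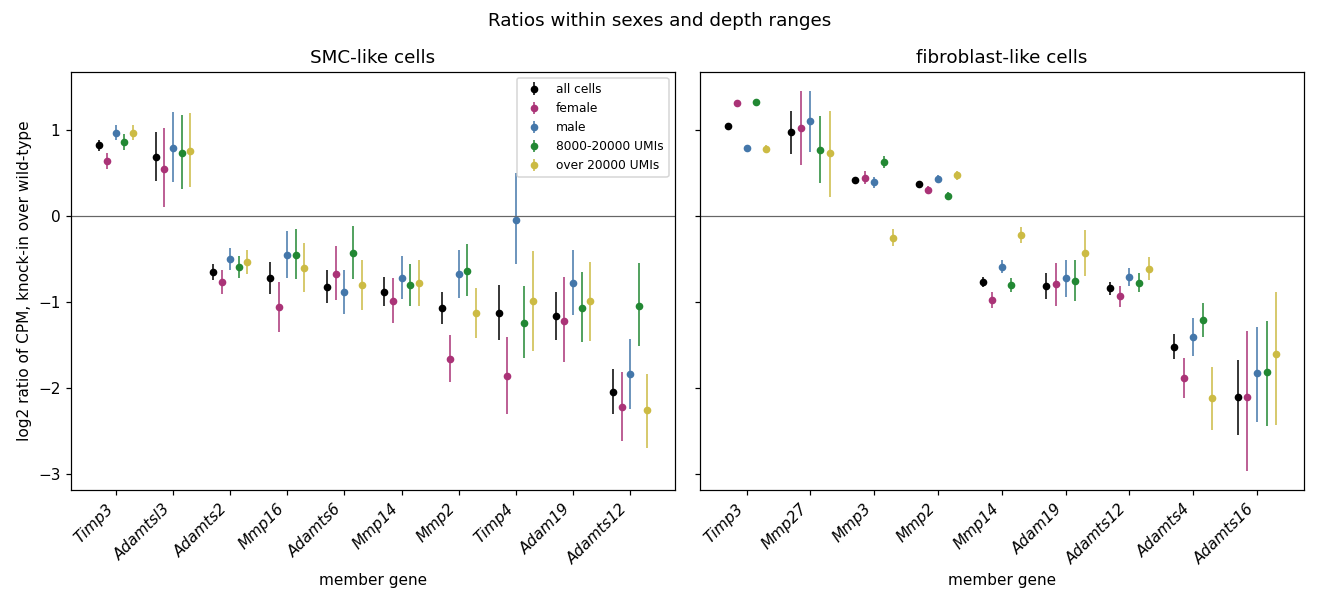
Points are log2 differences (knock-in over wild-type) of named members over all cells, females, males, and the depth ranges 8000 to 20000 and above 20000 UMIs, for SMC-like and fibroblast-like cells. Timp3 stays above 0 in each subset of both classes, whereas Timp4 in SMC-like cells ranges from -1.87 in female to -0.05 in male cells.

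Fibroblast-like cells comprised 3 clusters, named here by leading genes: Pex5l and Fmod (1340 wild-type and 1313 knock-in cells), Tmem100 and Opcml (779 and 435) and Entpd2 and C2 (581 and 1165, with a median of 12752 and 4670 UMIs). Timp3 was highest in the Pex5l and Fmod cluster (656 and 1418 CPM), and its log2 difference was 1.11, 0.78 and 0.97 in the order given. Timp2 and Timp1 were highest in the Entpd2 and C2 cluster (Timp2 2090 and 2619 CPM, Timp1 331 and 285 CPM). Mmp3 was high in the Pex5l and Fmod cluster (238 and 308 CPM) and lower in the Tmem100 and Opcml cluster (62.3 and 128 CPM); in the Entpd2 and C2 cluster it was at 187 and 156 CPM, a difference of -0.26. Mmp14 was lower in the knock-in library by more in the first and last of these (-0.94 and -1.02) than in the Tmem100 and Opcml cluster (-0.28), whose difference was not past 1.5-fold; the gap between clusters was not tested.

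The Tmem100 and Opcml cluster held the largest differences in ADAMTS genes. Of 45 members that passed there, 13 were at least 1.5-fold lower (28.9%, against 10.9% of 12420 genes) and 5 higher (11.1%, against 6.85%). Adamts4 was there at 41.5 CPM for wild-type and 2.26 CPM for knock-in (769 and 18 UMIs), a log2 difference of -4.20, against -1.02 in the Pex5l and Fmod and -1.55 in the Entpd2 and C2 cluster. Adamts16 was nearly limited to this cluster, at 20.1 and 5.03 CPM (372 of 383 and 40 of the 51 UMIs of fibroblast-like cells). Adamts19 was likewise found here, at 7.71 and 24.6 CPM (143 of 144 and 196 of 201 UMIs), although 779 of 2700 fibroblast-like cells were in the cluster in the wild-type and 435 of 2913 in the knock-in library. Adamtsl2 (34.0 and 6.41 CPM), Adamts3 (24.4 and 7.04 CPM) and Adamts9 (22.0 and 8.92 CPM) were also lower, while Adamts12 had about the same difference in this cluster (-0.97) as in the Entpd2 and C2 cluster (-1.01).

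**Figure D5:**
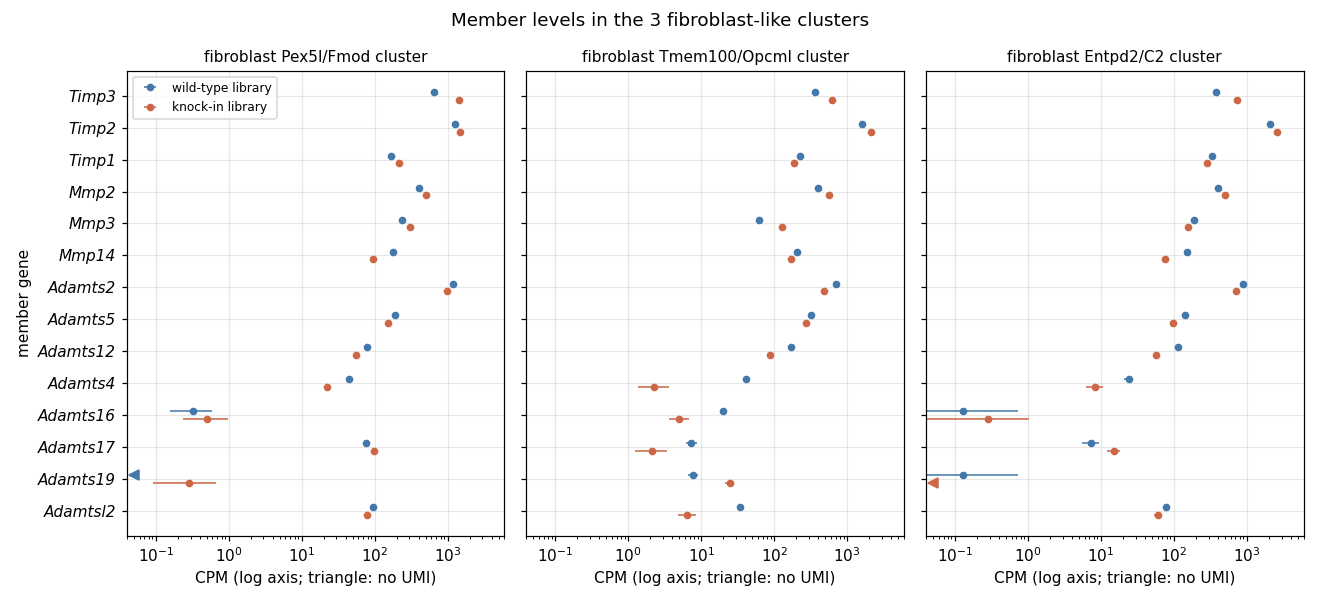
Levels of 14 members in CPM, on a log axis, in wild-type and knock-in cells of the 3 fibroblast-like clusters. In the Tmem100 and Opcml cluster the 2 genotypes are far apart for Adamts4 (41.5 and 2.26 CPM), Adamtsl2 and Adamts16, whereas Timp3 is higher in the knock-in library in all 3.

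In macrophage or monocyte-like cells, 26 members passed the minimum: 3 were at least 1.5-fold higher (11.5%, against 6.28% of 10761 genes), 9 lower (34.6%, against 8.85%) and 14 lay between, with a median log2 difference of -0.10 against -0.02 over all genes. All 7 MMPs that passed were among the 9, but the counting intervals of Mmp13, Mmp14 and Mmp23 span both directions. Mmp12 (ENSMUSG00000049723), the macrophage elastase, was at 15 and 0.83 CPM, a difference of -4.17 (-6.48 to -2.58), but its 81 wild-type UMIs came from 8 of 351 cells, up to 24 from 1 cell, and its 3 knock-in UMIs from 2 of 292 cells. Those 8 cells each had at least 22552 UMIs. Mmp19 was at 40.8 and 16.6 CPM (-1.29), although at 8000 to 20000 UMIs its difference was 0.11, and 0.80 in males of that depth. Mmp9 (ENSMUSG00000017737), gelatinase B, was at 53.8 and 33.2 CPM, -0.69 (-1.01 to -0.38), with -0.13 in female and -1.26 in male cells. After thinning, 14.2% of wild-type and 9.15% of knock-in macrophage or monocyte-like cells held a Mmp9 UMI, against 0.04% of fibroblast-like cells in either library.

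Other lower MMPs of macrophages rested on few UMIs. Mmp13 had 27 and 12 UMIs. Mmp2 (44 and 16 UMIs), Mmp23 (28 and 9) and Mmp14 (30 and 11) were at higher levels in fibroblast-like cells. Free RNA would give 50.8%, 70.4% and 20.4% of their wild-type UMIs and 100%, 100% and 24.2% of their knock-in UMIs, so the smaller part for Mmp14. Mmp8, the neutrophil collagenase, had 11 and 0 UMIs. Neutrophil markers in this class were at 196 and 63.7 CPM over 6 genes, of which 1 and 5 were at 0; their part in Mmp8 and Mmp9 was not tested. SMC markers here were at 97.1 and 227 CPM, and fibroblast markers at 495 and 346 CPM. Erythroid markers were at 0.371 and 848 CPM, with all 4 that passed the minimum higher, and cycling markers at 381 and 252 CPM, with 6 of 8 lower. The part of these in the macrophage or monocyte-like values was not tested.

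The sheddases of macrophage or monocyte-like cells differed little. Adam17 was at 193 and 142 CPM (-0.44), Adam15 at 180 and 212 CPM (0.24), Adam9 at 118 and 130 CPM, Adam19 at 116 and 134 CPM (0.21) and Adam10 at 92.3 and 92.6 CPM, so none passed 1.5-fold. ADAMs summed to 770 and 777 CPM, against 143 and 70.1 CPM for MMPs. Adamts6 was at 20.9 and 8.59 CPM (-1.29) and the non-catalytic Adam22 at 10.2 and 5.82 CPM (-0.81, but 0.29 in females of 8000 to 20000 UMIs), while Adamts14, on 9 and 17 UMIs, was higher (1.5).

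Endothelial-like cells were few, and 17 members passed: 6 were higher (35.3%, against 11.2% of 6436 genes) and 3 lower (17.6%, against 12.7%). Adamts1 was at 303 and 454 CPM (0.58), Adam10, the highest sheddase, at 285 and 331 CPM (0.22), and Adam15, the one ADAM with an integrin-binding RGD motif in humans, at 144 and 243 CPM (0.76). Adamts2 (10 and 21 UMIs, 1.97) and Adamtsl3 (12 and 15 UMIs, 1.22) rested on few molecules, and fibroblast markers in this class were at 1225 and 4258 CPM. Lymphatic endothelial markers went from 932 to 49.9 CPM, with 5 of the 5 that passed the minimum lower, SMC markers from 1461 to 780 CPM and endothelial markers from 8386 to 10111 CPM. The part of these shifts in the values of endothelial-like cells was not tested.

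In the unnamed clusters, the Sncg and Pln cluster had Adamts1 at 472 and 884 CPM (0.90), Adamts9 at 54.0 and 170 CPM (1.66) and Timp3 at 510 and 904 CPM (0.82), with Mmp2 at 57.2 and 21.7 CPM (-1.40). The Mdga2 and Chrm3 cluster (55 and 192 cells) was marked by Adamtsl1, at 1355 and 1398 CPM, with a UMI in 85.5% and 78.1% of cells after thinning against 35.0% and 35.4% of fibroblast-like cells. In that cluster Timp3 was at 740 and 1505 CPM, Mmp14 at 272 and 84.3 CPM (-1.69), Adamts12 at 200 and 34.3 CPM (-2.54) and Mmp3 at 78.7 and 1.34 CPM (69 and 3 UMIs). Of its 55 wild-type cells 54 were male and none female, whereas 80 of 192 knock-in cells were female and 83 male, so genotype and sex are mixed there.

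The third unnamed cluster, led by the cell division genes Hist1h2ap and Ube2c (117 wild-type and 60 knock-in cells; median UMIs 29524 and 19456), held lower levels of most members in the knock-in library. Of 30 members that passed there, 26 were at least 1.5-fold lower (86.7%, where 28.4% of 9723 genes were), 1 was higher (Adamts17; 3.33%, where 23.1% of all genes were) and 3 lay between, with a median log2 difference of -1.34 against -0.04 over all genes. Mmp3 was at 240 and 17.1 CPM (-3.81), Adamts12 at 86.4 and 8.15 CPM (-3.41) and Adamts5 at 197 and 36.7 CPM (-2.42). The inhibitors were lower as well: Timp2 at 1064 and 463 CPM (-1.20), Timp3 at 366 and 152 CPM (-1.27) and Timp1 at 260 and 76.6 CPM (-1.76). The sheddases Adam10 (53.7 and 63.6 CPM) and Adam17 (54.6 and 51.3 CPM) had intervals that hold 0. TIMPs gave 0.60 and 0.66 UMIs for each protease UMI, with intervals that overlap. Markers of other cells moved with these values: fibroblast markers were at 35252 and 10685 CPM, with 11 of 11 at least 1.5-fold lower, T or NK cell markers at 28.6 and 1008 CPM, with all 8 that passed higher, SMC markers at 1253 and 2281 CPM and mast cell markers at 655 and 1340 CPM, while the 8 cycling markers (5025 and 4877 CPM) all lay within 1.5-fold. The part of these other cells in the differences was not tested.

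Among other genes of the pathway, taken from lists of inhibitors, activators, other zinc proteases, sheddase partners, shed ligands and substrates, most stayed within 1.5-fold. Of all genes, 6.8% were at least 1.5-fold higher and 7.05% lower in SMC-like cells. The shares were 9.49% and 8.32% in fibroblast-like and 6.28% and 8.85% in macrophage or monocyte-like cells. The lists are short, and their counts were not tested against these shares. In SMC-like cells 0 of 6 other inhibitors and 0 of 6 ADAMTS substrates passed 1.5-fold. Of 10 activators and clearance receptors, Plat was higher (19.7 and 34.0 CPM) and Plau and Pcsk6 lower; of 9 other zinc proteases Cpe (1117 and 2038 CPM) and Phex were higher and 4 lower, Bmp1 (procollagen C-proteinase, 76.0 and 46.6 CPM), Cpz, Cpxm1 and Ece2. Of 8 shed ligands Kitl was higher and Areg and Cxcl16 lower, and of 6 sheddase partners Tspan17 was lower. Among substrates, Eln was at 20577 and 9022 CPM (-1.19) and Col1a1 at 2285 and 1328 CPM, 2 of 9 lower, and of 11 microfibril genes Ltbp4 was higher and Mfap2, Mfap4 and Ltbp2 lower. In fibroblast-like cells the matching counts of higher and lower genes were 1 and 2 of 10 other inhibitors (Serpine2 higher at 1.34; Tfpi2 and Papln lower), 1 and 1 of 11 activators (Cd44 0.83, Pcsk5 -0.76), 1 and 1 of 14 zinc proteases (Phex 1.59, Pappa2 -0.94), 1 and 1 of 7 sheddase partners (Tspan5 0.60, Tspan14 -0.61), 5 and 1 of 11 ligands (Cx3cl1 1.82 and Hbegf 0.78 among the higher, Btc lower), 1 and 0 of 6 ADAMTS substrates (Acan, 11 and 36 UMIs), 1 and 2 of 12 microfibril genes (Fbn2 at 28.4 and 2.12 CPM, -3.75) and 0 and 1 of 10 substrates (Eln, -1.0). In macrophage or monocyte-like cells the ligands Ereg (70 and 4 UMIs) and Areg (-1.60) were the 2 lower of 7, none of 2 ADAMTS substrates passed 1.5-fold, and Furin, an activator of membrane-type MMPs and ADAMs, was the 1 higher of 8 activators (0.71). There 1 of 5 inhibitors was higher and 1 lower, 1 and 2 of 4 zinc proteases, 0 and 1 of 7 sheddase partners, 0 and 3 of 9 microfibril genes and 1 and 4 of 8 substrates.

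In all, 10 members had no UMI in any kept cell of either library: Mmp20, the tooth enamel protease, and 9 ADAMs (Adam6a, Adam7, Adam20, Adam24, Adam25, Adam26a, Adam26b, Adam29 and Adam39), most of them known from the male reproductive tract. A count of 0 allows up to 0.0409 CPM in the wild-type and 0.0405 CPM in the knock-in library, taking 3 counts as the limit. Of the 73 detected members, 64 had a UMI in SMC-like, 71 in fibroblast-like, 57 in macrophage or monocyte-like and 45 in endothelial-like cells. The remaining members were rare everywhere, such as Adamts13, the von Willebrand factor protease, with 1 UMI, and Mmp7 and Mmp10 with 1 UMI each, over the named classes.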

How the data were processed

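Unfiltered UMI count matrices, 1 per library, were deposited by the authors; reads had been processed with Cell Ranger 7.1.0 per the submitters' processing notes, while the 10x chemistry, genome build, annotation and strand of counting are not given in the sources used here. No column was left unmapped. Barcodes were kept from 1000 UMIs and 500 genes upward where mitochondrial UMIs were 10% or less, and the 0.8% per 1000 cells with the highest scrublet scores (109 and 330 cells) were removed as doublets. Cells of both libraries were clustered together (2000 variable genes without the members, without Mgp and without sex-linked, haemoglobin, ribosomal and mitochondrial genes; 15 neighbours on 30 principal components, Leiden resolution 0.5; scanpy 1.11.5) and named by the mean gain of marker lists; a cluster whose second list exceeded 0.65 of its best stayed unnamed. Cell sex was read from Xist and Y-linked genes.

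UMIs were summed per class and library and scaled to counts per 1000000 (CPM). The log2 difference has an exact conditional binomial 95% interval (scipy 1.17.1); no p-value was computed. A gene entered a count where its mean CPM predicts at least 10 UMIs in each library, and was called at 1.5-fold; a 0 was set to 3 counts for a bound. Genes named are the 4 TIMPs, the 6 highest members per class, the members past 1.5-fold with an interval that leaves out 0 (at most 10 each way), the members 4-fold above every other class, and up to 4 genes per pathway list; the values of clusters, subsets and rare members were added after values were seen. The members and lists were chosen with earlier results of these data known. The procedure was tested on simulated data: with 200 genes changed, 97%, 99% and 94% of those set at a log2 change of 1 were called in SMC-like (11361 genes), fibroblast-like (15272) and macrophage or monocyte-like cells (10761), as were 2.63%, 3.12% and 4.98% of the unchanged genes. The simulated counts held Poisson counting error only, without spread between cells, mice or libraries. These shares are therefore not error rates for a difference between genotypes. Promoters are from RefSeq (GRCm38.p6). By RefSeq models, 14 members overlap another protein-coding gene. Alternatives are other minimums, filters, clusterings, centring, a range of 8000 to 20000 UMIs and sexes.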

Additional observations from a re-analysis of the deposited data

Results flagged for a closer look

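In 5 members, SMC-like, fibroblast-like or macrophage or monocyte-like cells had log2 differences of opposite sign, with counting intervals that leave out 0 and at least 1 of the differences past 1.5-fold; with 1 library per genotype none of these differences between classes was tested. Mmp2 was at -1.07 in SMC-like, 0.37 in fibroblast-like and -0.88 in macrophage or monocyte-like cells, the last on UMIs that free RNA could supply in large part. Adamts3 was at 1.54 in SMC-like and -0.51 in fibroblast-like cells. Adam19 was at -1.17 in SMC-like and -0.81 in fibroblast-like cells but at 0.21 in macrophage or monocyte-like cells. Adamts14 was at -1.32 in SMC-like and 1.5 in macrophage or monocyte-like cells, on few UMIs. Adam22 was at 0.34 in fibroblast-like and -0.81 in macrophage or monocyte-like cells.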

How the results depend on the processing

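No paired analysis was possible because each genotype is 1 library. Of 38 values of a named member in a class, 29 kept their direction under every alternative that gave a value; cells over 20000 UMIs were not among these alternatives, and there Adamtsl1 in SMC-like cells (0.42) and Adam12 in fibroblast-like cells (0.78) changed sign. Counts are given as members at least 1.5-fold higher or lower in the knock-in library. They are not set beside the shares of all genes under the same alternative, so a shift of the members is not told apart from a shift of all genes. In SMC-like cells (3 higher, 10 lower, median -0.34), no minimum gave 9 and 23 with a median of -0.44, centring on the median of all genes 5 higher, male cells 5 higher with a median of -0.071, cells of 8000 to 20000 UMIs a median of -0.13, male cells of that depth 5 and 3 with a median of 0.12, adding the Sncg and Pln cluster 5 higher with a median of -0.18, and a 2-fold threshold 1 and 5. In fibroblast-like cells (11 and 9), a minimum of 30 UMIs gave 6 higher, male cells 7 higher, female cells of 8000 to 20000 UMIs 5 and 5, male cells of that depth 5 higher, and 2-fold 5 and 2. In macrophage or monocyte-like cells (3 and 9), 30 UMIs gave 0 and 3, no minimum 6 and 17, doublets kept 7 higher, Leiden resolution 1 5 higher, female cells 1 and 5, female cells of 8000 to 20000 UMIs 1 and 2, male cells of that depth 3 lower, and 2-fold 4 lower. The other 9 changed sign under some alternative. In male SMC-like cells of 8000 to 20000 UMIs, Mmp2 was at 0.071, Timp4 at 0.22 and Adamts14 at 0.61. In fibroblast-like cells, Adamts19 was at -1.80 in cells of 8000 to 20000 UMIs and -2.14 in males of that depth, Adam23 at 0.10 and Mmp28 at 0.37 in females of that depth, and Adamts8 at 0.24 with libraries clustered separately, 0.19 at 8000 to 20000 UMIs, 0.35 in females, 0.19 in females of that depth and 0.32 in males of that depth. In macrophage or monocyte-like cells Mmp19 was at 0.11 at 8000 to 20000 UMIs and 0.80 in males of that depth, and Adam22 at 0.29 in females of that depth. Except where the alternative changes the threshold or the genes counted, the cause was not tested. SMC-like cells gave no value with the libraries clustered separately, since no knock-in cluster was then named SMC-like. The alternatives by sex and depth together and the one with the Sncg and Pln cluster were chosen after seeing the data. The 245 wild-type SMC-like cells set the precision of that class.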
